A study of Mus musculus with 6 samples.

Results

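*Helz2* and *Znfx1* are 2 of the 22248 genes with a deposited expression value in these bone-marrow-derived macrophages (BMDMs). They were picked by gene symbol because an earlier pass over the same libraries had shown both to be higher in CITED2-deficient cells. Their difference between the genotypes is therefore given as a description, with no test. Both encode large helicases that are known as interferon-stimulated genes. No interferon was added to these cultures, so induction by interferon itself was not measured here.

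HELZ2 carries a pair of helicase domains and a ribonuclease domain, and it is known as a coactivator that binds nuclear receptors of the PPAR, RXR and thyroid hormone receptor group. ZNFX1 joins a helicase domain to zinc fingers of the NFX1 type. It is known to bind double-stranded RNA of viruses and to act with MAVS, the adaptor of the RIG-I-like receptors. The helicase domains of both proteins resemble that of UPF1, which works in nonsense-mediated RNA decay. In macrophages, type I interferon acts through its receptor, JAK kinases and a complex that holds STAT2 and IRF9 and binds the interferon-stimulated response element (ISRE) in the promoters of many antiviral genes.

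The study asked how loss of the transcriptional regulator CITED2 changes gene expression in resting macrophages. Total RNA was sequenced from 3 control libraries of *Lyz2cre* mice and 3 CITED2-deficient libraries of *Cited2 fl/fl*:*Lyz2cre* mice, all on the C57BL/6 strain and labelled as postnatal week 10. The paper's methods give a younger age for the donors of bone marrow. Both groups carry Cre recombinase in the *Lyz2* locus, which is active in neutrophils as well as in macrophages, and only the second carries floxed *Cited2*, so control cells with floxed *Cited2* and no Cre are not part of the comparison. BMDMs were grown from bone marrow with macrophage colony-stimulating factor (M-CSF). The labels do not say whether the 3 libraries of a group came from 3 mice, so p-values measure the spread between these libraries, which may be technical.

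Expression is given as FPKM, fragments per kilobase of transcript scaled to library size. Depth, recovered from the steps between FPKM values, was 17289286 to 18952077 fragments in control and 22583995 to 26100410 in CITED2-deficient libraries. *Cited2* stood at 71.7 to 79.3 FPKM in control and 7.22 to 9.27 FPKM in CITED2-deficient libraries, so every library matched its label. Of 8 macrophage markers, all above 9 FPKM in each library, 1 was higher in CITED2-deficient cells (*Fcgr1*, 1.48 on the log2(FPKM + 1) scale) and 5 were lower. These were *Lyz2*, whose locus holds Cre (-1.59), *Itgam* (-0.81), *Adgre1* (-0.32), *Csf1r* (-0.31) and *Mertk* (-0.26). With median-ratio scaling or with quantile normalization between libraries, 3 of the 8 markers were higher and 5 were lower. The list summed to 5624 to 5694 FPKM in control and 5287 to 5367 FPKM in CITED2-deficient libraries. All 7 of the 7 tested fibroblast or stromal markers were higher in CITED2-deficient libraries. Their summed level was 53.5 to 63.0 FPKM in control and 203 to 592 FPKM in CITED2-deficient libraries, with the highest sum in CITED2-deficient replicate 1. In bulk RNA, more cells of a type and more RNA per cell cannot be told apart. Of 11687 genes at or above 1 FPKM on average, 16.7% were higher and 34.6% were lower in CITED2-deficient cells at an adjusted p below 0.05 in limma.

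*Helz2* (ENSMUSG00000027580) lies on the minus strand of chromosome 2, 181227615 to 181242027 in mm10. Its longest annotated transcript has 19 exons and 2947 codons. *Znfx1* (ENSMUSG00000039501) lies on the same strand at 167035793 to 167063015, and its longest transcript has 14 exons and 1909 codons. The starts of the 2 genes are 14.179 Mb apart, so they are not neighbors. The windows from 250 bases before to 50 bases after their starts are shown because interferon-regulated genes are often controlled from this stretch. They are RefSeq sequences of GRCm38.p6 on the minus strand, at chr2:181241978-181242277 for *Helz2* and chr2:167062966-167063265 for *Znfx1*. The capitals mark the motif GAAANGAAA.
Helz2 promoter: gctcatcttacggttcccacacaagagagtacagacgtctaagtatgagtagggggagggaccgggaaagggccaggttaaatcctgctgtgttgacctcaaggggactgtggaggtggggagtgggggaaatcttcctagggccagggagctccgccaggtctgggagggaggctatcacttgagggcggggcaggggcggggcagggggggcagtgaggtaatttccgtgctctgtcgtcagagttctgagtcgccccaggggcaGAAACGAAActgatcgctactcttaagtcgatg
Znfx1 promoter: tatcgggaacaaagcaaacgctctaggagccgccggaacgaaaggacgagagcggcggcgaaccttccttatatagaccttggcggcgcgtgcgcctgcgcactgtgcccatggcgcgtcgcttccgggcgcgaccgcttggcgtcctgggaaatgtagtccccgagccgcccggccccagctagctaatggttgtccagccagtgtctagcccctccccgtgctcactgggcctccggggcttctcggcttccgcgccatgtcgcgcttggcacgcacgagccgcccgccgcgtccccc

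Neither window held the ISRE letters GAAANNGAAA on either strand, which occur in 3.44% of the 32851 promoter windows in RefSeq. Neither held the gamma-activated sequence letters TTCNNNGAA, which occur in 8.30% of the windows. A second RefSeq start of *Znfx1*, within the gene at chr2:167043446-167043745, held none of the 3 motifs. The *Helz2* window held GAAA repeated with a spacer of 1 base, and its first base is base 18 of the transcript. This motif was searched for after the *Helz2* window had been seen, and it occurs in 3.17% of all windows. A match is a description of the letters and not a measured binding site.

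Of the 5 other helicase genes named below for the largest rises, 3 held the ISRE letters. The stretches around the matches are shown to set the *Helz2* motif beside those of the RNA sensor genes. Capitals mark the motif, and the letters TTTCGATTTC are the ISRE on the other strand.
Helz2: cccaggggcaGAAACGAAActgatcgctac
Ddx58, one-base spacer: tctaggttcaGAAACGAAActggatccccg
Ddx58, ISRE: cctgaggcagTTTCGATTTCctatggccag
Ifih1, ISRE: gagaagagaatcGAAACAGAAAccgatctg
Ddx60, first ISRE: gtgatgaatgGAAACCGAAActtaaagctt
Ddx60, second ISRE: gagcagaagaGAAACCGAAActatccttca

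*Ddx58* encodes RIG-I and *Ifih1* encodes MDA5, both sensors of viral RNA. The *Helz2* and *Ddx58* windows shared a run of 14 bases, caGAAACGAAActg, which occurred in 3 of all 32851 windows. The run was defined by extending the match between the *Helz2* and *Ddx58* windows until their letters differed. Both are thus in the count by construction, and the count is a description only. The third window belongs to *Casp8*, which encodes a protease of cell death and differed by 0.033 on the log2(FPKM + 1) scale (adjusted p = 0.655). Both windows of *Mov10* lacked all 3 motifs. No window was matched for *Dhx58*. Among the core interferon-stimulated genes described below, 7 of the 18 genes matched to RefSeq held the ISRE letters in a window and 6 held the motif with a spacer of 1 base, while 3.99% and 3.70% of all genes did. The gamma-activated sequence letters were held by 5 of the 18 and by 9.55% of all genes.

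*Helz2* had an FPKM of 8.30, 7.35 and 8.02 in control replicates 1 to 3. In CITED2-deficient replicates 1 to 3 its FPKM was 42.5, 48.4 and 48.6. All CITED2-deficient libraries stood far above all control libraries, and replicate 1 was the lowest of the CITED2-deficient group. On average *Helz2* went from 7.89 ± 0.488 (SD, n = 3) to 46.5 ± 3.44 FPKM (SD, n = 3), a ratio of 5.89, and single pairs of libraries gave ratios from 5.12 to 6.60. These values rest on 1015 to 1253 fragments in a control library and 8631 to 10118 in a CITED2-deficient library, and the libraries of a group differed by a coefficient of variation of 6.19% and 7.40%. Counting error alone gives 2.83% to 3.14% in control and 0.994% to 1.08% in CITED2-deficient libraries, so spread between libraries and not depth set the precision.

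*Znfx1* started from a higher level. Control replicates 1 to 3 gave 71.2, 69.6 and 73.4 FPKM. CITED2-deficient replicates 1 to 3 gave 246, 271 and 270 FPKM. The groups did not overlap, and CITED2-deficient replicate 1 was again the lowest of its group. On average *Znfx1* went from 71.4 ± 1.93 (SD, n = 3) to 262 ± 13.9 FPKM (SD, n = 3), a ratio of 3.67 with a range of 3.35 to 3.89 over pairs of libraries. Between 4742 and 27750 fragments stood behind each value.

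**Figure D1:**
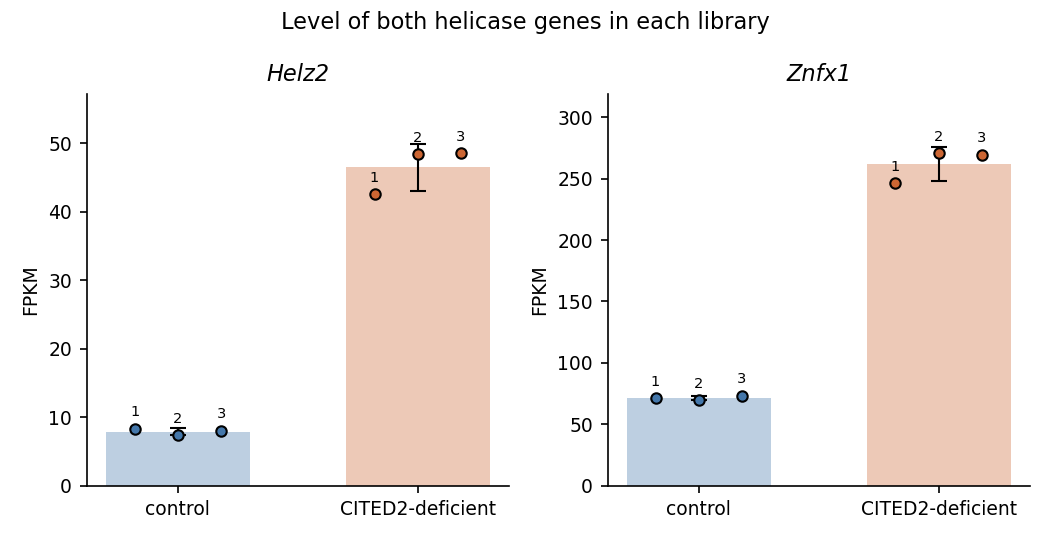
Level of *Helz2* (left) and *Znfx1* (right) in FPKM in each library. Bars are group means, error bars are SD (n = 3) and numbered points are replicates. For both genes all CITED2-deficient libraries lie above all control libraries, and replicate 1 is the lowest CITED2-deficient library.

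On the scale of log2(FPKM + 1), used for all differences below, *Helz2* differed by 2.42 and *Znfx1* by 1.86 between the genotypes. By this difference *Helz2* ranked 54 and *Znfx1* ranked 111 of the 11687 tested genes, counted from the largest rise. By level, *Helz2* moved from rank 7733 in control to rank 2485 in CITED2-deficient cells, and *Znfx1* from rank 1668 to rank 393. Every CITED2-deficient library was above every control library for 19.0% of tested genes and below it for 40.9%. These ranks describe what the choice of the genes was made on.

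The relative change of *Helz2* was the larger of the 2, while the gain in level was 38.6 FPKM for *Helz2* and 191 FPKM for *Znfx1*. The FPKM of *Znfx1* was 9.06 ± 0.450 (SD, n = 3) times that of *Helz2* in control and 5.64 ± 0.126 (SD, n = 3) times in CITED2-deficient cells, with ranges of 8.57 to 9.46 and 5.55 to 5.79. FPKM is per length, and the length used is the mean over the annotated transcripts, 7984 bases for *Helz2* and 3943 bases for *Znfx1*. With the longest transcripts, 10109 and 7218 bases, the ratio would be 6.27 in control and 3.90 in CITED2-deficient cells. *Znfx1* was the more abundant per length with either length.

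CITED2-deficient replicate 1, the lowest in its group for both helicases, had the highest sum of fibroblast or stromal markers. Without it the difference was 2.48 for *Helz2* and 1.91 for *Znfx1*. The other CITED2-deficient libraries still had marker sums of at least 203 FPKM, against at most 63.0 FPKM in control. Leaving out replicate 1 therefore does not remove the stromal signal. The part of stromal cells in either difference was not tested. Plasmacytoid dendritic cells make much type I interferon. Their markers summed to 2.16 to 2.87 FPKM in control and 1.76 to 2.07 FPKM in CITED2-deficient libraries. Most of this sum was *Cox6a2*, with means of 2.19 and 1.59 FPKM, which did not pass the threshold (adjusted p = 0.0809 in limma). The other markers with a value, *Siglech* among them, were at 0.192 FPKM or less on average in both groups. Lymphocyte markers summed to 1.43 to 2.21 and 1.38 to 2.14 FPKM, and none reached a mean FPKM of 1. Of 7 tested neutrophil markers 1 was higher and 5 were lower in CITED2-deficient libraries, against 16.7% and 34.6% of all tested genes.

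Helicases that resemble UPF1 are the closest relatives of both genes. Beside *Helz2* and *Znfx1*, 10 such genes were listed, 8 had a value and 7 were tested. *Mov10* and *Dna2* were higher, *Helz* was lower and 4 did not pass the threshold, with a median difference of 0.055. Over all tested genes the median was -0.10, with 16.7% higher and 34.6% lower. *Mov10*, which encodes an RNA helicase that restricts retroelements and is itself known to respond to interferon, rose from 10.8, 10.5 and 9.90 FPKM in control to 28.3, 30.4 and 30.4 FPKM in CITED2-deficient libraries. Its difference was 1.43 (standard error 0.056, adjusted p = 7.10e-08), and every CITED2-deficient library exceeded every control library. *Dna2*, a helicase and nuclease of DNA replication, rose by 0.42 from 4.09 ± 0.338 to 5.80 ± 0.291 FPKM (SD, n = 3, adjusted p = 0.00326 in limma). *Helz*, which encodes a helicase with a zinc finger, fell by 0.37 from 10.5 ± 0.509 to 7.90 ± 0.692 FPKM (SD, n = 3, adjusted p = 0.00318 in limma).

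*Upf1* itself differed by -0.11 (adjusted p = 0.0521), and it passed the threshold without control replicate 3 (adjusted p = 0.0456) and with limma-voom on recovered fragments (adjusted p = 0.0180). The differences were 0.055 for *Aqr*, which works in splicing, and 0.12 for *Ighmbp2*, a helicase tied to translation. Neither passed the threshold. With median-ratio scaling between libraries *Aqr* passed it (0.16, adjusted p = 0.0154). *Zgrf1*, at a mean of 0.997 FPKM in control, was not tested.

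Both helicases and the 8 relatives with a value make up 10 genes. In control cells *Znfx1* was the highest of these 10 genes and *Helz2* ranked 7. The order of the named genes in control was *Znfx1*, *Aqr*, *Upf1*, *Helz*, *Mov10*, *Helz2*, *Ighmbp2*, *Dna2* and *Zgrf1*. The ranges of *Helz* and *Mov10* overlapped, and all other neighbors in this order were apart. In CITED2-deficient cells *Helz2* came directly after *Znfx1*, and its lowest library, 42.5 FPKM, exceeded the highest library of *Aqr*, 36.7 FPKM. *Helz2* and *Znfx1* together made up 37.6% to 39.3% of the summed FPKM of the 10 genes in control and 67.2% to 68.8% in CITED2-deficient libraries. The other genes without *Mov10* summed to 113 to 121 and 113 to 117 FPKM, ranges that overlap.

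**Figure D2:**
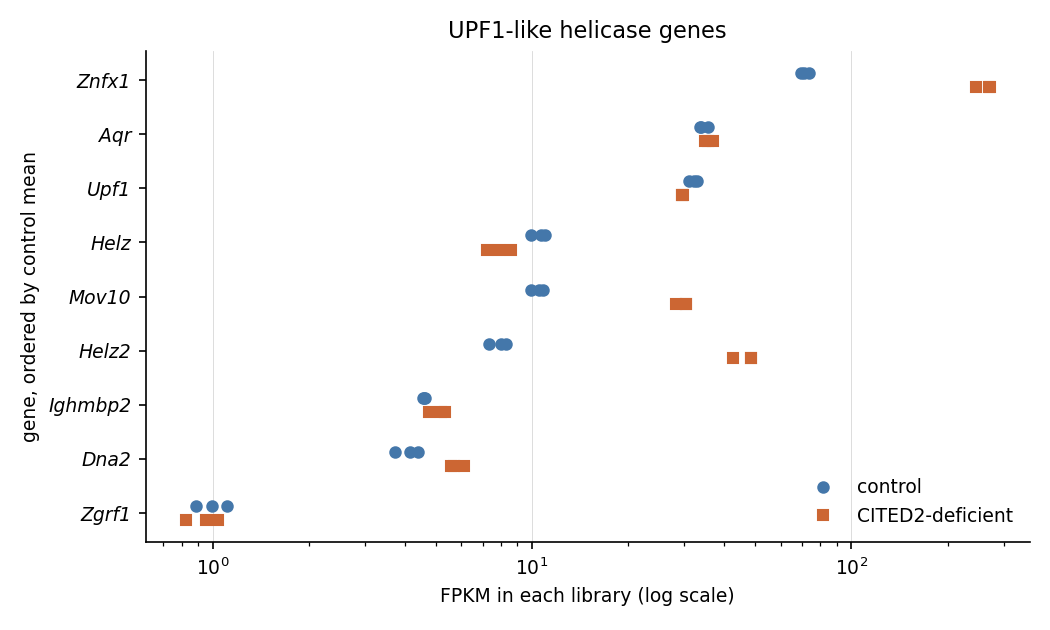
FPKM of the named UPF1-like helicase genes on a log axis, with circles for the 3 control and squares for the 3 CITED2-deficient libraries and genes ordered by control mean. *Znfx1*, *Helz2* and *Mov10* shift to the right by ratios of 3.67, 5.89 and 2.86, while the other genes differ by ratios from 0.751 to 1.42.

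Genes that share only the accessory domains were also measured. *Nfx1* and *Nfxl1*, which encode zinc finger proteins of the type found in ZNFX1, differed by -0.23 (adjusted p = 0.00197) and -0.28 (adjusted p = 0.00371). *Dis3*, *Dis3l* and *Dis3l2* encode ribonucleases with the domain found in HELZ2. They differed by -0.026, -0.0030 and -0.17, and of these *Dis3l2* passed the threshold (adjusted p = 0.0479). It was not past it with either other scaling or with any 1 library left out, where adjusted p ranged from 0.0893 to 0.118. *Dis3* and *Dis3l* changed sign with either other scaling.

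The DEAD-box and DEAH-box helicases, the large group to which RIG-I and its relatives are counted by symbol, served as a wider comparison. Of 52 *Ddx* and *Dhx* genes 49 were tested, with a median of -0.095. Of these 4 were higher, 15 were lower and 30 did not pass the threshold, against 16.7% higher and 34.6% lower over all tested genes. *Ddx60*, an antiviral cofactor of RIG-I, rose by 1.82 from 8.98 ± 0.196 to 34.4 ± 3.85 FPKM (SD, n = 3, adjusted p = 1.19e-07 in limma). The other rises were those of *Dhx58*, *Ddx58* and *Ddx24*, at 1.79, 1.73 and 0.37. No other member of the group had a difference above 0.14. The largest falls were -0.52 for *Ddx3x*, a helicase of translation, -0.33 for *Ddx59* and -0.25 for *Dhx32*. With median-ratio scaling *Ddx59* and *Dhx32* did not pass (adjusted p = 0.0545 and 0.0753), nor did *Ddx59* without control replicate 1, control replicate 3 or CITED2-deficient replicate 2 (adjusted p = 0.0522 to 0.0547). Small differences in this group depended on the scaling between libraries, since median-ratio scaling gave 10 higher and 1 lower, and quantile normalization gave 6 and 7.

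ZNFX1 acts beside the RIG-I-like receptors, so the genes of that pathway were listed. Of 10 tested genes 6 were higher, 3 were lower and 1 did not pass the threshold, with a median of 0.56. Over all tested genes 16.7% were higher and 34.6% lower. All 3 receptor genes were higher. *Ddx58* rose from 45.7 ± 4.15 to 154 ± 7.13 FPKM, *Ifih1* from 16.4 ± 0.640 to 56.7 ± 3.32 FPKM and *Dhx58*, which encodes the regulator LGP2, from 52.1 ± 1.45 to 183 ± 12.4 FPKM (SD, n = 3). Their differences were 1.73, 1.72 and 1.79, with adjusted p of 5.12e-08, 1.81e-08 and 8.89e-09, and each is close in size to the 1.86 of *Znfx1*.

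*Mavs*, the gene of their adaptor, differed by -0.20 (adjusted p = 0.0122), a call that was not kept with median-ratio scaling (-0.10, adjusted p = 0.158) or quantile normalization (-0.13, adjusted p = 0.0871). Among the kinases downstream, *Tbk1* differed by 0.0032 (adjusted p = 0.939) and *Ikbke* by -0.30 (adjusted p = 0.000685). *Tbk1* passed the threshold with median-ratio scaling, at 0.11 (adjusted p = 0.0191). The ubiquitin ligases *Trim25* and *Traf3* rose by 0.73 and 0.40. Of the transcription factors, *Irf3* fell by 0.39 (adjusted p = 0.000239) and *Irf7* rose from 73.7 ± 7.02 to 816 ± 35.5 FPKM (SD, n = 3), a difference of 3.46 (adjusted p = 8.88e-10).

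The interferon pathway itself was examined from ligand to target. *Ifnb1*, the gene of interferon beta, was listed at 0 FPKM in all 3 control libraries. In CITED2-deficient replicates 1 to 3 it stood at 0.262, 0.118 and 0.255 FPKM, below the level at which genes were tested. Control libraries were also less deep, at 17289286 to 18952077 fragments against 22583995 to 26100410. Whether *Ifnb1* differed was not tested. Of 13 tested signaling genes 7 were higher, 4 were lower and 2 did not pass the threshold, with a median of 0.29. The shares over all tested genes were 16.7% higher and 34.6% lower. The counts of this list, like those over all genes, depended on the scaling. With median-ratio scaling 9 of the 13 were higher and 3 lower, and with quantile normalization 8 and 4. The receptor genes *Ifnar1* and *Ifnar2* fell by 0.27 and 0.30, and *Ifngr1*, a receptor chain for interferon gamma, fell by 0.92 from 250 ± 3.59 to 132 ± 3.88 FPKM (SD, n = 3). *Stat2* rose by 2.10 from 59.3 ± 2.36 to 257 ± 12.1 FPKM (SD, n = 3), and *Irf9* rose by 0.67. *Usp18*, which encodes a negative regulator of the receptor, rose by 2.30, and *Socs1*, another inhibitor, by 0.74.

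All 25 of 25 core interferon-stimulated genes were higher, against 16.7% of all tested genes, with differences of 0.73 to 4.22 and a median of 2.04. *Usp18* and *Trim25* belong to this list and to those above. *Ifi44* (4.22), *Ifit2* (3.76) and *Ifit3* (3.49) had the largest rises of the list. *Helz2* lay above and *Znfx1* below the median of these genes. The list was written with earlier results of these libraries known, so its count is not independent evidence of a direction.

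**Figure D3:**
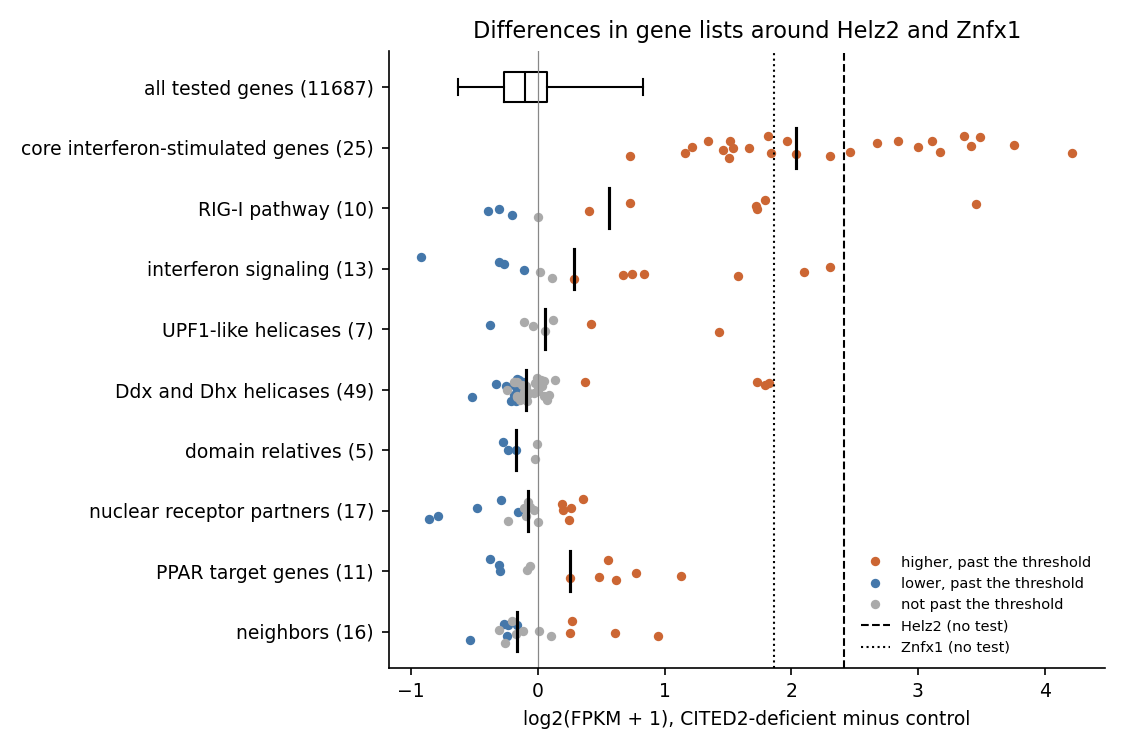
Difference in log2(FPKM + 1) between CITED2-deficient and control BMDMs for each tested gene of 9 lists, with the number of tested genes in parentheses. Points are genes colored by call, short black lines are medians, the box spans the quartiles of all tested genes with whiskers at percentiles 5 and 95, and vertical lines mark *Helz2* and *Znfx1*. Core interferon-stimulated genes lie to the right of 0, while most *Ddx* and *Dhx* genes lie near -0.095.

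HELZ2 is known for binding nuclear receptors, and the receptors and cofactors that could act with it were measured. Of 17 tested genes 5 were higher, 5 were lower and 7 did not pass the threshold, against 16.7% higher and 34.6% lower over all tested genes. The median was -0.079 and became 0.025 with median-ratio scaling. Among the receptors, *Pparg*, the receptor of fat storage in macrophages, rose by 0.26 from 56.4 ± 4.61 to 67.6 ± 2.70 FPKM (SD, n = 3, adjusted p = 0.00535 in limma). *Ppard*, *Rxra* and *Thra* fell by 0.86, 0.78 and 0.48. Among the cofactors, *Med1*, a subunit of the Mediator complex, rose by 0.36 and *Tgs1*, an RNA cap methyltransferase that binds a PPAR coactivator, rose by 0.24. *Ppara* was listed at 0 FPKM in every control library.

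Known PPAR target genes moved in both directions. Of 11 tested, 6 were higher, 3 were lower and 2 did not pass the threshold, with a median of 0.25. Among all tested genes 16.7% were higher and 34.6% lower. *Pdk4*, a brake on pyruvate oxidation, rose by 1.13 from 1.06 ± 0.261 to 3.55 ± 0.951 FPKM (SD, n = 3, adjusted p = 0.000489 in limma). *Abcg1*, a cholesterol exporter, rose by 0.77 and *Plin2*, a coat protein of lipid droplets, rose by 0.62. *Lpl* and *Cd36*, which serve uptake of lipid, each fell by 0.30.

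The genes around both helicases were examined to see whether the region as a whole moved. Within 250 kb of either gene 42 genes are annotated, 27 have a value and 16 were tested. Of these 4 were higher and 5 were lower, against 16.7% and 34.6% of all tested genes, with a median of -0.17. The count of higher genes was 2 without control replicate 2 and 3 without any other single library. Next to *Helz2*, *Gmeb2*, whose end lies 9.421 kb away, differed by 0.11 (adjusted p = 0.406). *Srms*, *Gm14398*, *Gm7645* and *Stmn3* did not reach the level for testing, and *Fndc11* has no value. *Ppdpf* and *Rtel1* were higher by 0.27 (adjusted p = 0.0191) and 0.25 (adjusted p = 0.0283). *Ppdpf* was past the threshold in all but 3 and *Rtel1* in all but 4 of the 6 fits that leave out 1 library, and without control replicate 2 neither passed (adjusted p = 0.0682 and 0.0521). *Col20a1* and *Arfrp1* were lower by 0.54 and 0.27, and *Col20a1* did not pass without control replicate 2 (adjusted p = 0.0518). Among tested neighbors of *Helz2*, no difference exceeded 0.54 in size on this scale, against 2.42 for *Helz2*. The scale understates the change of *Col20a1*, which is a low gene. Its mean was 1.67 FPKM in control and 0.838 FPKM in CITED2-deficient libraries, a ratio of 0.501.

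Around *Znfx1*, *Ddx27* ends 0.845 kb from the end of *Znfx1* and differed by -0.17 (adjusted p = 0.0128), a call that was not kept with median-ratio scaling or quantile normalization (adjusted p = 0.261 and 0.0551). *Stau1* and *Arfgef2* fell by 0.24 and 0.23, *B4galt5* rose by 0.61 (adjusted p = 4.96e-06), and *Gm11470* did not reach the level for testing. *Zfas1*, a noncoding RNA that hosts small nucleolar RNAs, starts 81 bases from the start of *Znfx1* on the opposite strand. The small RNA genes *Gm27494* and *Gm25878* within it have no value. *Zfas1* stood at 13.01, 12.7 and 13.4 FPKM in the control replicates and at 27.4, 24.6 and 26.1 FPKM in the CITED2-deficient replicates. Its difference was 0.95 (adjusted p = 1.03e-06), and the groups did not overlap.

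*Znfx1* and *Zfas1* share 82 bases. The libraries were made with a kit that keeps the strand, but no source used here states whether the counting used it, so reads from the shared bases may have been counted for either gene. *Zfas1* had 213 to 246 fragments in control and 541 to 676 in CITED2-deficient libraries. At the mean density of *Znfx1*, 82 bases would hold 98.6 to 114 fragments in control and 501 to 577 in CITED2-deficient libraries. This density uses the mean transcript length of 3943 bases. With the longest transcript, 7218 bases, these numbers would be lower. The share of *Zfas1* fragments that come from *Znfx1* was not tested.

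**Figure D4:**
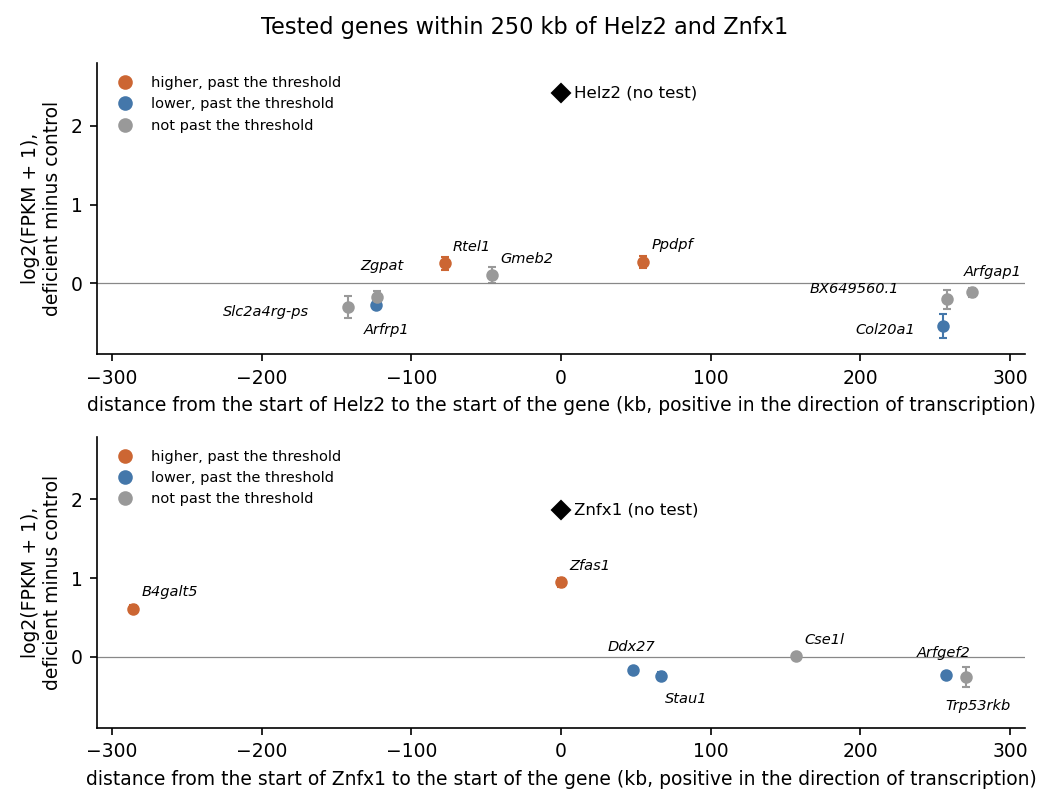
Difference in log2(FPKM + 1) for tested genes within 250 kb of *Helz2* (top) and *Znfx1* (bottom) against the distance between starts in kb, which is longer than 250 kb for some genes because the gap was measured between gene ends. Error bars are standard errors from limma. *Zfas1* (0.95) and *B4galt5* (0.61) are the highest neighbors, and both lie below *Znfx1* (1.86).

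The genes whose profile over the 6 libraries was most like that of each helicase were found by the distance between centred log2(FPKM + 1) values, where 0 means the same profile. For *Helz2* they were *Pde7b* (0.158), a phosphodiesterase gene, *Oasl2* (0.170), *Ifi209* (0.177), *Fgl2* (0.186) and *Kdr* (0.196). For *Znfx1* they were *Lgals3bp* (0.0650), *Slco3a1* (0.110), *Slc28a2* (0.111), *Dhx58* (0.111) and *C3* (0.136). *Oasl2* and *Dhx58* belong to the lists of interferon-stimulated and RIG-I pathway genes, and *C3* encodes the central complement protein. *Znfx1* was the 66th gene from *Helz2*, and *Helz2* was the 145th from *Znfx1*, at a distance of 0.687. With 3 libraries in each of 2 groups this distance mostly reflects the size of the difference between the groups.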

How the data were processed

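Per the submitters' processing notes and the paper's methods, the authors removed ribosomal RNA, made stranded libraries, aligned reads to mm10 with STAR and used Cuffdiff with GENCODE to make the deposited FPKM, 1 value for each gene and library with no pooling. The sources used here give neither versions nor the annotation release. Fragment numbers were recovered as FPKM times the mean transcript length in GENCODE vM21. Of 22220 matched genes 96.1% gave whole fragments in each of the 6 libraries, with a tolerance of 0.02. Intervals from these fragments cover counting error only.

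For genes averaging at least 1 FPKM, log2(FPKM + 1) was compared in limma 3.58.1 (R 4.3.3). The variance followed a trend with level, and p-values were adjusted over all tested genes by the Benjamini-Hochberg method. The scale understates the change of low genes. The steps were tested on simulated data in which all genes had the same spread beyond counting error. That run does not give the error rate in these libraries. An exact permutation test of 3 against 3 libraries cannot give p below 0.1. *Helz2*, *Znfx1* and all gene lists were chosen with earlier results of these data known. Named genes are both helicases, *Cited2*, every gene of the UPF1-like, domain and RIG-I lists, up to 3 rises and 3 falls of each other list, the 5 nearest profiles, and neighbors that passed or lay next to a helicase. Some genes under this rule are left out and not reported here. *Ddx24*, *Irf9*, *Ifnb1*, *Socs1*, *Ppara*, *Casp8* and *Cox6a2* were named after their values or windows were seen. Promoters are RefSeq windows of GRCm38.p6, searched on both strands. Same-numbered replicates did not deviate together (correlations of 0.0138, 0.00784 and 0.0402). Alternatives were other pseudocounts, filters and scalings, limma without the trend, a replicate block, each library left out, and limma-voom on recovered fragments.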

Additional observations from a re-analysis of the deposited data

How the results depend on the processing

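*Helz2* and *Znfx1* kept their direction under all 15 alternatives. The log2 difference of *Helz2* moved by more than the spread between replicates with a pseudocount of 0.1 (2.54), median-ratio scaling (2.51) and limma-voom (2.55), and that of *Znfx1* with median-ratio scaling (1.96). The alternatives differ in pseudocount, scaling or unit. With median-ratio scaling the median over all tested genes moved as well, from -0.10 to -0.0069. The cause was not tested further. With 1 library left out the difference was 2.37 to 2.48 for *Helz2* and 1.84 to 1.91 for *Znfx1*. The number of genes past the threshold was 5994, and 5226 to 5467 with 1 library left out. Median-ratio scaling gave 2696 higher and 2490 lower genes in place of 1950 and 4044, and quantile normalization 2265 and 3125. Of the list counts summed over both directions, that of the *Ddx* and *Dhx* helicases left the range of 1.5 times its value, which was 19. It fell to 11 with median-ratio scaling and to 12 without control replicate 1 or control replicate 3, and ranged up to 20 with other libraries left out. Split by direction, the count of higher neighbors went from 4 to 2 without control replicate 2 and with no filter on low values, where the neighbors' median was 0.015. Among UPF1-like helicases, the lower count went from 1 to 2 without control replicate 3 and with limma-voom, and the higher count from 2 to 1 with a mean FPKM of at least 5. With a replicate block 5708 genes passed, and 17 *Ddx* and *Dhx* genes, with the differences of *Helz2* and *Znfx1* at 2.42 and 1.86 as before. The labels state no pairing by replicate number, and same-numbered replicates did not deviate together. Genes below a mean FPKM of 1, such as *Ifnb1* and *Zgrf1*, were too low to test.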
